A study of Mus musculus with 19 samples.

Results

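The 10 genes described here belong to the insulin and insulin-like growth factor (IGF) system, and they were chosen by name. They are the ligand genes Igf1 and Igf2, the receptor genes Insr and Igf1r, the receptor substrate genes Irs1 and Irs2, and the binding protein genes Igfbp2, Igfbp3, Igfbp4 and Igfbp5. All 10 had a named probe set and passed a filter on dim probe sets, out of 18193 genes with a symbol and 13460 genes tested. Their transcripts were measured with Affymetrix arrays in sciatic nerve of inbred DBA/2J mice. The 19 arrays, 1 mouse each, came from 5 diabetic mice given rosiglitazone (DR), 5 diabetic mice given vehicle (DV), 5 control mice given rosiglitazone (CR) and 4 control mice given vehicle (CV), and are named by group and the number in their titles. Diabetes was of type 1 and was induced with streptozotocin (STZ), a toxin taken up by the insulin-producing beta cells of the pancreas, and rosiglitazone activates the nuclear receptor PPAR gamma. The authors excluded 1 further control array for its quality. Doses, durations, age and sex are not given in the sources used here. The question of the study, per its title, was whether rosiglitazone lessens neuropathy in this model.

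Insulin acts through the insulin receptor, and IGF1 and IGF2 act mainly through the type 1 IGF receptor, both of them receptor tyrosine kinases. The active receptors phosphorylate the substrates IRS1 and IRS2, which pass the signal to phosphatidylinositol 3-kinase and AKT, while the binding proteins carry the IGFs outside cells and limit or direct their access to the receptor. In peripheral nerve this system is known for supporting Schwann cells, sensory neurons and axon regrowth. In STZ models circulating insulin is low, while IGFs and their binding proteins are also made locally in tissues.

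The nerve samples differed in tissue content. Of 10 listed Schwann cell and myelin genes 7 were measured, and their mean level, centred per gene over the 19 arrays, ran from -0.95 to 0.29. It was -0.95 on CR715, -0.43 on DR716 and -0.36 on DV707, against -0.06 to 0.29 on the other 16 arrays. On the log2 intensity scale used throughout, the myelin protein genes Mbp and Pmp22 spanned 13.83 to 14.44 and 13.82 to 14.34, while Mag, a myelin adhesion protein, spanned 6.76 to 9.78 and S100b, a Schwann cell marker, 11.25 to 13.60. Of 10 listed sensory neuron genes, which mark cell bodies that lie in ganglia outside the nerve trunk, 9 were measured. Their mean level, centred in the same way, was between -3.64 and -3.18 on arrays DV706, DV707, DV709, CR715 and DR716, against -0.11 to 2.20 on the other 14. These 5 arrays are called neuron-poor below. They are a split made from the data, and include 3 of the 5 DV arrays and 0 of the 4 CV arrays. The sensory neuron transcription factor Isl1 was between 3.83 and 6.41 on the 5 arrays and between 9.47 and 11.35 on the other 14. Fat and muscle transcripts varied as well. The level of 8 adipocyte genes ran from -4.18 to 2.82, with means of 0.21 in DR, -0.87 in DV, 1.07 in CR and -0.51 in CV. The level of 10 skeletal muscle genes ran from -2.68 to 4.14, with means of 1.02, -0.65, 0.24 and -0.76 in the same order. The Gapdh 3' minus 5' difference, which is read from control probe sets and grows as RNA breaks down, was 3.71 and 4.38 on DV706 and DV707 and 1.75 on DR716, against 1.00 to 1.37 on the rest. The beta cell genes Ins2, Iapp and Pdx1 had mean levels of 5.39, 3.25 and 4.44, under the filter of 5.54, and were not tested.

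No member passed the test in any of the 5 comparisons of the design. The test was limma with Benjamini-Hochberg adjustment over all 13460 genes at 0.05, and it called 0% of genes in each comparison, so that the members' result is that of the table as a whole. The members differed widely in their spread. Irs1, Igfbp5 and Irs2 spanned 0.66, 0.85 and 1.21 log2 units over the 19 arrays. A second bright probe set of Igfbp5, not the one used for the tests, spanned 4.32. Igf2 and Igf1 spanned 3.16 and 3.19 and Igfbp2 spanned 6.40. The plot of all members by group shows where the spread of the tested probe sets lies.

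**Figure D1:**
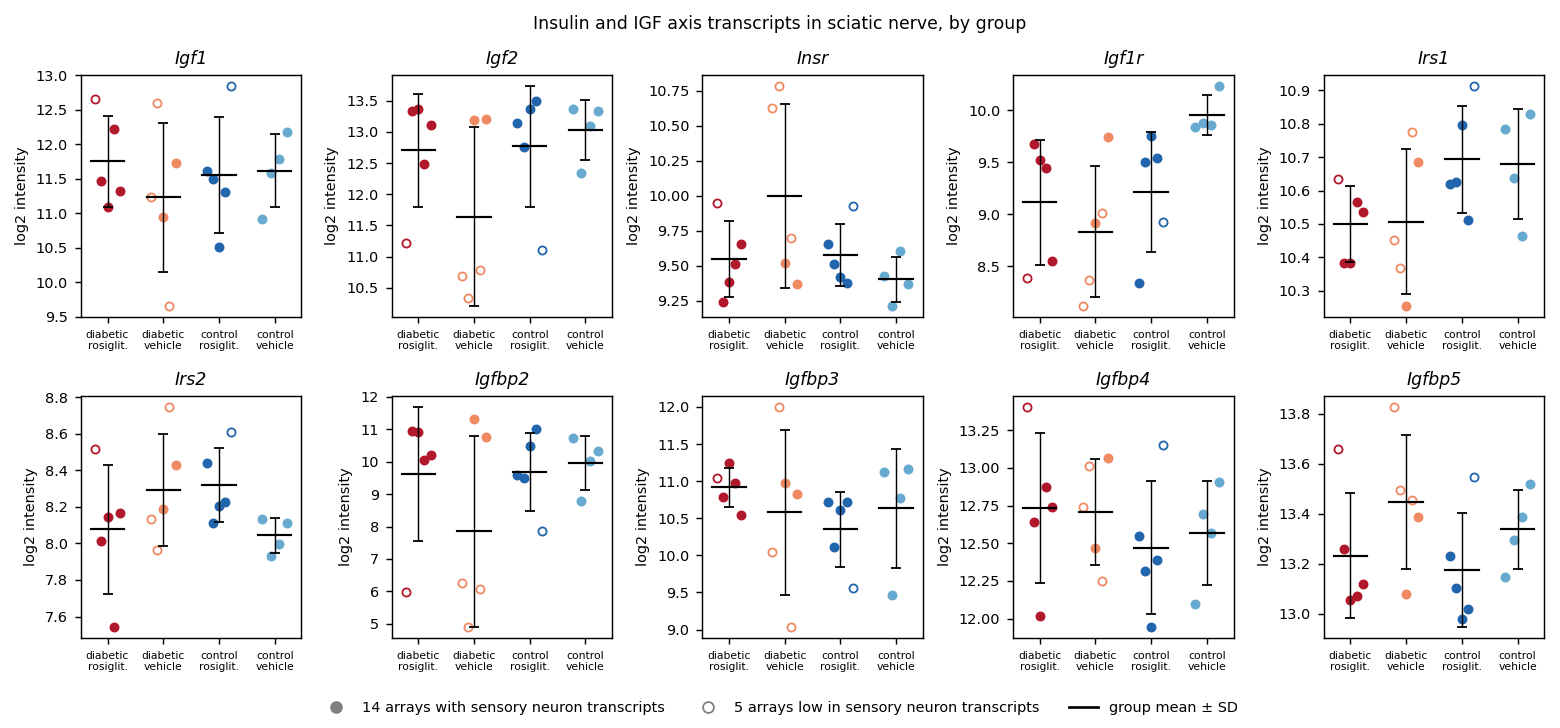
Log2 intensity (y axis) of each of the 10 genes on 19 arrays, by group (x axis), with 1 point per array and bars for the group mean ± SD. Open points are the 5 arrays low in sensory neuron transcripts, which hold the lowest values of Igf2 and Igfbp2 and the highest of Insr, and the 4 control vehicle arrays lie above the other 15 for Igf1r.

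The first comparison asked what diabetes did in mice given vehicle. Igf2, a growth factor best known from fetal growth, averaged 11.64 ± 1.43 (SD, n = 5) in diabetic nerve and 13.03 ± 0.48 (SD, n = 4) in control nerve. Igf1r, the receptor of both IGFs, averaged 8.83 ± 0.63 (SD, n = 5) in diabetic nerve, with each array below every control array, and 9.95 ± 0.19 (SD, n = 4) in control nerve. Insr, the insulin receptor, averaged 10.001 ± 0.66 (SD, n = 5) in diabetic nerve, against 9.40 ± 0.16 (SD, n = 4) in control nerve. None of these differences passed the adjusted threshold. Before adjustment, 3 of the 10 members had p under 0.05, against 18.1% of all genes tested. Of these 3, 1 lay higher, against 10.7% of all genes, and 2 lay lower, against 7.39%. Over the 10 members the median difference was -0.11, with 4 higher and 6 lower, while over all genes it was 0.03 with 52.9% higher.

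Among the ligands, Igf2 was at 10.69, 10.33, 13.19, 10.78 and 13.20 on arrays DV706 to DV710, against 13.36, 12.34, 13.10 and 13.33 on CV702 to CV705. The diabetic arrays fell into a low trio and a pair within the control range, so the groups overlapped. The difference was -1.39 (SE 0.65), a fold change of 0.380 with a 95% interval from 0.147 to 0.988 (limma adjusted p = 0.271). The low trio was DV706, DV707 and DV709, which are arrays low in sensory neuron transcripts. Without the 5 arrays low in these transcripts the difference was 0.17, opposite in sign. In bulk tissue, fewer cells of a type and less RNA per cell cannot be told apart. A second, dimmer probe set of Igf2 differed by -1.72 (SE 0.87). Igf1, the main postnatal growth factor of the family and made in many tissues, was at 11.23, 12.60, 10.95, 9.66 and 11.72 in diabetic nerve, against 10.92, 11.59, 11.79 and 12.18 in control nerve. Its diabetic values reached both above and below the control range. The difference was -0.39 (SE 0.52), with a 95% interval from -1.49 to 0.71, and it was 0.0061 without array DV709.

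Among the receptors, Igf1r was at 8.12, 8.37, 8.92, 9.01 and 9.74 on arrays DV706 to DV710, against 9.84, 9.87, 9.86 and 10.24 on CV702 to CV705. The groups did not overlap, and 2.43% of all genes tested likewise lay lower on every diabetic than on every control array. The difference was -1.12 (SE 0.35), a fold change of 0.460 with a 95% interval from 0.276 to 0.766 (limma adjusted p = 0.238). It was -0.73 without DV706 and DV707, whose Gapdh differences were highest, and -0.62 without the 5 neuron-poor arrays. Igf1r has another probe set of similar brightness, which read differently. It was at 8.67, 9.57, 9.06, 8.97 and 8.95 on the diabetic arrays, against 9.31, 9.07, 9.20 and 9.46 on the control arrays. Here the groups overlapped, the difference was -0.22 (SE 0.16), and the highest value was that of a diabetic array, DV707. With the mean of all 5 Igf1r probe sets the difference was -0.28. That mean takes in dimmer probe sets, at mean levels of 6.66, 5.63 and 4.36, which differed by 0.11, -0.05 and -0.10. Which transcripts each probe set reads was not analysed here.

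Insr was at 10.63, 10.79, 9.52, 9.70 and 9.37 on the diabetic arrays, against 9.43, 9.21, 9.60 and 9.37 on the control arrays. DV706 and DV707 stood above all others, and the remaining diabetic arrays were within or just above the control range. The difference was 0.60 (SE 0.25), a fold change of 1.51 with a 95% interval from 1.04 to 2.19 (limma adjusted p = 0.251). Without DV706 and DV707 it was 0.13, and without the 5 neuron-poor arrays 0.04. The other probe sets of Insr had mean levels of 5.53 and 3.31, under the filter of 5.54. They differed by 0.11 (SE 0.22) and 0.18 (SE 0.23).

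The substrates, which link both receptors to phosphatidylinositol 3-kinase, varied little. Irs1 was at 10.45, 10.37, 10.25, 10.77 and 10.69 in diabetic nerve, against 10.78, 10.64, 10.46 and 10.83 in control nerve, a difference of -0.17 (SE 0.12) with a 95% interval from -0.43 to 0.09. Irs2 was at 8.13, 7.96, 8.19, 8.75 and 8.43 in diabetic nerve, against 8.13, 7.93, 7.99 and 8.11 in control nerve, a difference of 0.25 (SE 0.18) with a 95% interval from -0.13 to 0.62. For each of them the groups overlapped.

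Among the binding proteins, Igfbp2, which is found in nervous tissue as well as in blood, had the widest spread. It was at 6.25, 4.90, 11.30, 6.06 and 10.75 on arrays DV706 to DV710, against 10.72, 8.79, 10.03 and 10.33 on CV702 to CV705. The lowest 3 values were again those of DV706, DV707 and DV709, and the other diabetic arrays lay above all control arrays. The difference was -2.11 (SE 1.26) with a 95% interval from -4.77 to 0.54 (limma adjusted p = 0.355), and it was 1.06 without the 5 neuron-poor arrays. Igfbp3, the main IGF carrier of blood, averaged 10.58 ± 1.11 (SD, n = 5) in diabetic nerve, against 10.63 ± 0.80 (SD, n = 4) in control nerve. Its diabetic arrays ran from 9.03 to 12.004 and its control arrays from 9.47 to 11.17. The difference was -0.06 (SE 0.47), and for a second, dimmer probe set of Igfbp3 it was -0.45 (SE 0.48).

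Igfbp4, which binds IGFs in tissues and is cut by the protease PAPP-A, was at 12.74, 13.01, 12.47, 12.25 and 13.06 in diabetic nerve, against 12.09, 12.69, 12.57 and 12.91 in control nerve. The groups overlapped, with a difference of 0.14 (SE 0.27). Its dimmest probe set differed by -0.35 (SE 0.50), and its others by 0.02 to 0.34. Igfbp5, a binding protein that also attaches to extracellular matrix, was at 13.83, 13.49, 13.08, 13.46 and 13.39 in diabetic nerve, against 13.15, 13.30, 13.39 and 13.52 in control nerve, a difference of 0.11 (SE 0.16). Its other probe set went the opposite way. That one was at 10.48, 8.77, 11.18, 12.48 and 12.89 on the diabetic arrays, against 12.16, 12.81, 12.85 and 13.09 on the control arrays, a difference of -1.57 (SE 0.62). The 2 lowest values, of DV706 and DV707, belong to the arrays with the highest Gapdh differences, and DV708, at 11.18, had a Gapdh difference of 1.09. The part of RNA breakdown in this disagreement was not tested. The plot of both probe sets shows it.

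**Figure D2:**
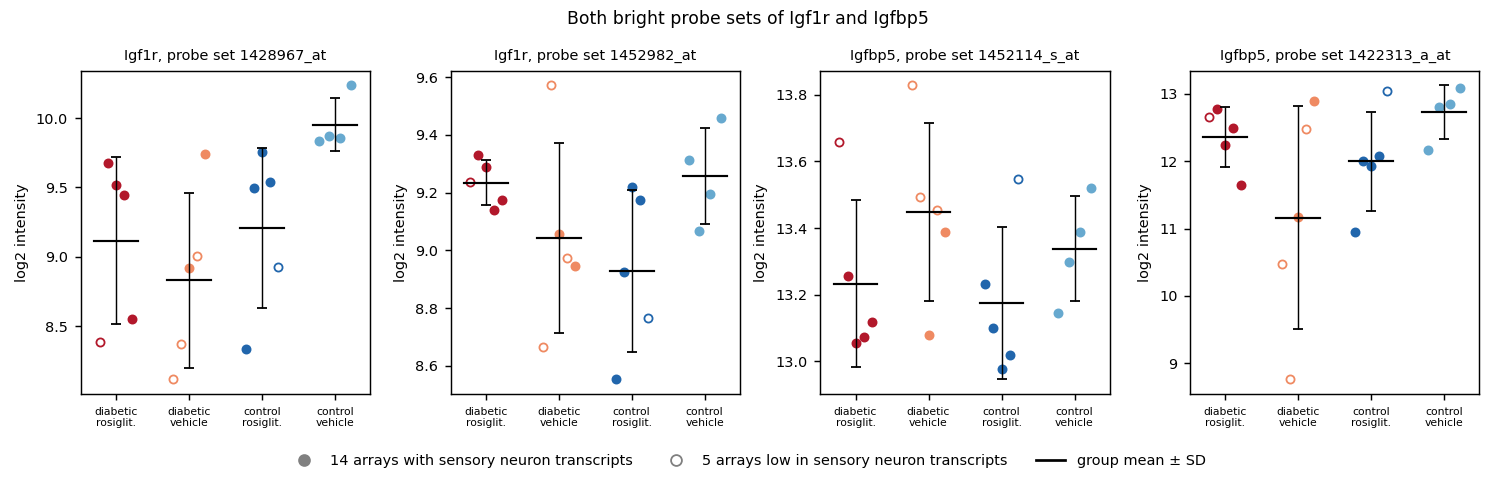
Log2 intensity (y axis) of both bright probe sets of Igf1r and of Igfbp5 on 19 arrays by group (x axis), 1 point per array, with the group mean ± SD. The Igf1r probe set used for the tests differed by -1.12 between diabetic and control mice given vehicle and the other by -0.22, and the Igfbp5 probe sets differed by 0.11 and -1.57.

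Other contents of the samples moved with this comparison. The level of the 9 sensory neuron genes ran from -3.64 to 2.20 in diabetic and from 0.31 to 1.196 in control nerve. The level of 10 endothelial genes ran from -0.36 to 1.07 in diabetic and from -0.47 to -0.16 in control nerve. The level of 10 fibroblast and perineurium genes ran from -0.35 to -0.01 in diabetic and from 0.04 to 0.19 in control nerve, without overlap. No marker was listed at 0 on any array, but the lowest deposited intensity was 3.76, so this does not show that each was detected. With the Gapdh difference as a covariate, Igf1r, Insr, Igf2 and Igfbp2 differed by -0.73, 0.15, -0.62 and -0.45. The part of the endothelial and fibroblast contents in the members' differences was not tested.

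The second comparison asked what rosiglitazone did in diabetic mice. Of the 10 members 6 lay higher and 4 lower, with a median difference of 0.16 against -0.02 over all genes, and none had an unadjusted p under 0.05, against 9.7% of all genes. Igf2 was at 11.21, 13.33, 13.38, 12.48 and 13.11 on arrays DR716 to DR720, against the low trio and high pair of the DV arrays given above. The groups overlapped, with a difference of 1.06 (SE 0.62; limma adjusted p = 0.509). Igfbp2 was at 5.98, 10.94, 10.91, 10.05 and 10.21 on the DR arrays, 1 of which, DR716, was as low as the DV trio. Its difference of 1.77 (SE 1.19) had a 95% interval from -0.74 to 4.27. Without the 5 neuron-poor arrays the differences were -0.12 for Igf2 and -0.50 for Igfbp2, opposite in sign.

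Insr was at 9.95, 9.24, 9.39, 9.52 and 9.65 on the DR arrays, a difference from vehicle of -0.45 (SE 0.24; limma adjusted p = 0.497), and of 0.02 without DV706 and DV707. Igf1r was at 8.38, 9.68, 9.52, 9.45 and 8.55 on the DR arrays, and overlapped the DV arrays, with a difference of 0.29 (SE 0.33). Igf1 was at 12.66, 11.47, 11.09, 12.22 and 11.32 on the DR arrays, a difference of 0.52 (SE 0.49). The DV range of Igf1 held all but the highest of these values. The binding proteins Igfbp3, Igfbp4 and Igfbp5 differed by 0.34, 0.03 and -0.22, and the substrates Irs1 and Irs2 by -0.0067 and -0.22. None of these intervals excluded 0. The other bright probe set of Igfbp5 again went the opposite way, with a difference of 1.201 (SE 0.58). The second probe set of Igfbp3 differed by 0.80 (SE 0.45).

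**Figure D3:**
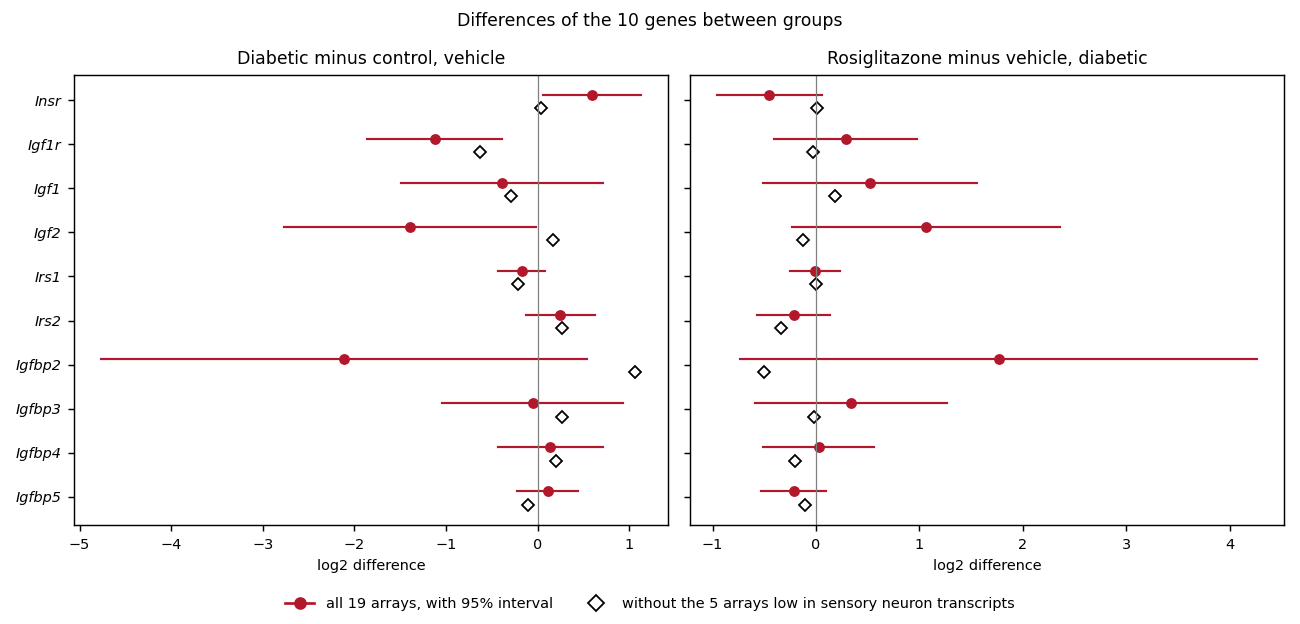
Log2 difference (x axis) of each of the 10 genes (y axis) for diabetic minus control mice given vehicle and for rosiglitazone minus vehicle in diabetic mice, with bars for the 95% interval of the fit. Open diamonds are the differences without the 5 neuron-poor arrays, at 0.17 for Igf2 and 1.06 for Igfbp2 in the left panel against -1.39 and -2.11 with all arrays.

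The third comparison set rosiglitazone against vehicle in control mice. The members differed by -0.74 to 0.28, with 3 higher and 7 lower. Igf1r was at 8.34, 9.50, 9.75, 9.54 and 8.93 on arrays CR711 to CR715, all below the 4 control vehicle arrays. The same held for 1.87% of all genes tested. The difference was -0.74 (SE 0.35; limma adjusted p = 1.000), and Igf1r was the 1 member of 10 with an unadjusted p under 0.05, against 2.83% of all genes. This comparison and diabetes under vehicle share the 4 CV arrays. The other bright Igf1r probe set differed by -0.33 (SE 0.16), in the same direction. Igf2 was at 13.14, 12.76, 13.36, 13.49 and 11.11 on the CR arrays, of which CR715, the lowest, is low in sensory neuron transcripts. Igfbp2 was at 9.58, 9.48, 10.49, 11.01 and 7.87 on the same arrays, again lowest on CR715. The differences were -0.26 (SE 0.65) for Igf2 and -0.28 (SE 1.26) for Igfbp2.

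Diabetic and control mice were also compared under rosiglitazone. The members' differences ran from -0.24 for Irs2 to 0.57 for Igfbp3, 0 of 10 members had an unadjusted p under 0.05, against 1.29% of all genes, and every member's groups overlapped. Igfbp3 averaged 10.92 ± 0.27 (SD, n = 5) in diabetic nerve, against 10.35 ± 0.51 (SD, n = 5) in control nerve, with a 95% interval of the difference from -0.36 to 1.497. Its second probe set differed by 0.80 (SE 0.45). Irs1 averaged 10.50 ± 0.11 (SD, n = 5) in diabetic nerve, against 10.69 ± 0.16 (SD, n = 5) in control nerve. Its differences between diabetic and control mice were -0.19 under rosiglitazone and -0.17 under vehicle, and both 95% intervals held 0.

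The interaction, which is the rosiglitazone difference in diabetic mice minus that in control mice, was 1.03 (SE 0.48) for Igf1r (limma adjusted p = 0.748). It was the 1 member of 10 with an unadjusted p under 0.05, against 4.77% of all genes. Without the 5 neuron-poor arrays this interaction was 0.64, and for the other bright probe set it was 0.52 (SE 0.23). Igfbp2 and Igf2 had interactions of 2.04 (SE 1.73) and 1.32 (SE 0.90), and without the 5 arrays these were -0.67 and -0.28. For Irs2 the interaction was -0.49 (SE 0.24), from a difference of -0.22 in diabetic and of 0.28 in control mice. For Igfbp5 it was -0.05 (SE 0.22), and for its other bright probe set 1.93 (SE 0.85). For Igfbp3 it was 0.62 (SE 0.64), and for its second probe set 1.24 (SE 0.66).

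Igf2, Igfbp2 and Insr followed the split of the arrays by sensory neuron transcripts. Igf2 lay between 10.33 and 11.21 on the 5 low arrays, with a median of 10.78, and between 12.34 and 13.49 on the other 14, with a median of 13.20. Igfbp2 lay between 4.90 and 7.87, with a median of 6.06, against 8.79 to 11.30 with a median of 10.41. For both genes all 5 arrays were below all of the other 14, as were 4.39% of all genes tested. Insr went the other way, at 9.70 to 10.79 with a median of 9.95 on the 5 arrays and at 9.21 to 9.66 with a median of 9.43 on the other 14. All 5 arrays thus lay above the 14, as did 1.56% of all genes. The other, dim probe sets of Insr overlapped between the 5 arrays and the 14. The remaining 7 members overlapped between the 5 arrays and the 14, and Igfbp5 did so narrowly, at 13.46 to 13.83 against 12.98 to 13.52. The split was made from the measured values of other genes, so these are descriptions with no test. Endothelial levels were 0.10 to 1.07 on the 5 arrays and -0.63 to 0.38 on the other 14, and their part in these ranges was not tested. Within the 14 arrays the sensory neuron level showed no relation to Igf2 that passed the test (Pearson r = 0.21, adjusted permutation p = 0.715, Spearman rho = 0.01, over 80 pairs of members and marker lists).

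**Figure D4:**
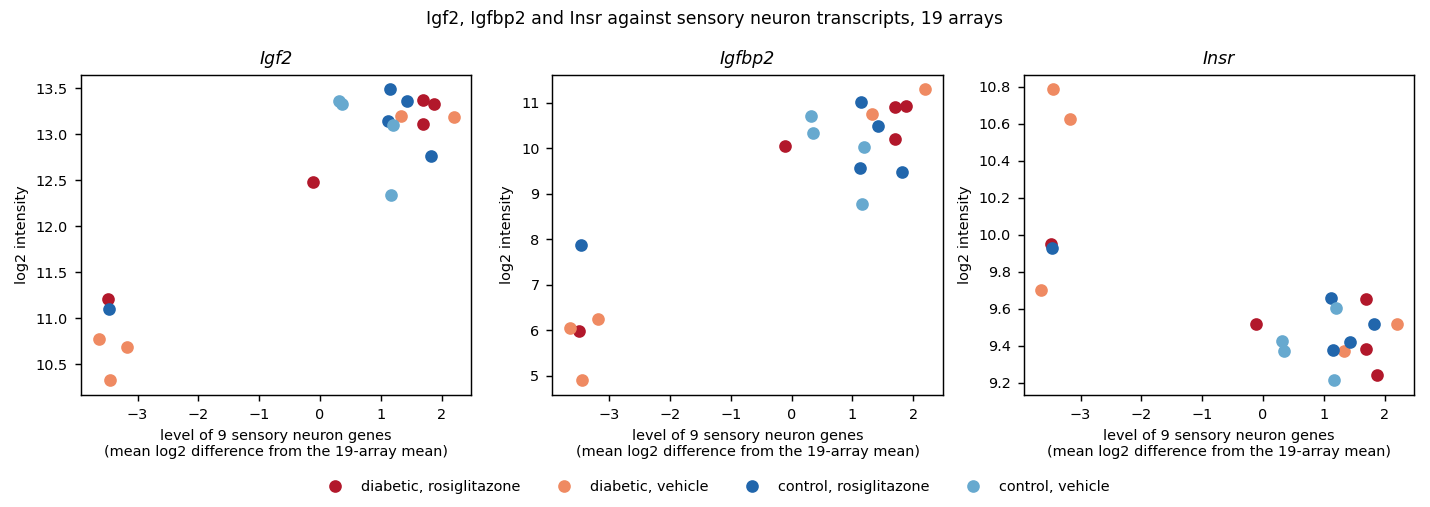
Log2 intensity of Igf2, Igfbp2 and Insr (y axes) against the mean centred log2 level of 9 sensory neuron genes (x axes), 1 point per array, coloured by group. The 5 arrays at the left of each panel, 3 of them from diabetic mice given vehicle, lie below the other 14 for Igf2 and Igfbp2 and above them for Insr.

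Because Igf2 and Igfbp2 moved together across arrays, the bases just before 1 annotated start of each gene are shown, from RefSeq (GRCm38.p6), with GC boxes in capitals. A GC box, GGGCGG read on either strand, is the motif of SP1-type factors, which act at many promoters, those without a TATA box included. The windows are 250 bases long and run 5′ to 3′ on the gene's strand. The Igfbp2 window lies on the plus strand at chr1:72824230-72824479 and the Igf2 window on the minus strand at chr7:142657497-142657746.
Igfbp2: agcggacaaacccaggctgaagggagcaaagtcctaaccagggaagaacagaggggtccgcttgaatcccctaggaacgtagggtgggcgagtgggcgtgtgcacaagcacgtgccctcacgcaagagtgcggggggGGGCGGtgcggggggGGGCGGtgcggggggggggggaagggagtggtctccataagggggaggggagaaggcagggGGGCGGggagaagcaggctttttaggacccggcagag
Igf2: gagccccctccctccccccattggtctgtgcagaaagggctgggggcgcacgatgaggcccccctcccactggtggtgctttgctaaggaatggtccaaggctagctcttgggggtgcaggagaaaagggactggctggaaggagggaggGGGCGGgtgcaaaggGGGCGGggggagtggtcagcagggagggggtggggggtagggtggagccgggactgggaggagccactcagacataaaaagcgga
The Igfbp2 window held 3 GC boxes and the Igf2 window 2, and they were chosen as the windows of each gene with the most GC boxes. The other listed start of Igfbp2 had 0, and the other 3 starts of Igf2 had 0, 0 and 1. GC boxes were not particular to this pair, as the windows of Irs1, Igf1r and Irs2 held 2, 2 and 1. A start was listed for 9 of the 10 members, all but Insr, with 13 windows in all, of which 6 held a GC box, against 32.7% of 32851 windows of the same length. AGGTCA on either strand, the core element of PPAR and related nuclear receptors, was in 3 of the 13 windows, those of Igf1r, Igf2 and Igf1, against 14.02% of all. The FOXO motif GTAAACA was in 0 of the 13, against 3.17% of all. These matches describe letters in the windows and say nothing of binding.

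Relations among the members were examined within the 14 arrays, over 45 pairs, with 100000 permutations. Igf1 and Igfbp4 varied together, with Pearson r = 0.81 (adjusted permutation p = 0.0189) and Spearman rho = 0.78 (adjusted permutation p = 0.0616). Without the 2 arrays farthest from the median of Igf1 r was 0.73, and after centring each group it was 0.88. Igf2 and Igfbp2 had r = 0.78 (adjusted permutation p = 0.0317) and rho = 0.75 (adjusted permutation p = 0.0684), with r = 0.71 without the 2 farthest arrays and 0.88 after centring. Igfbp2 and Igfbp3 had r = 0.75 (adjusted permutation p = 0.0358), but rho was 0.54 (adjusted permutation p = 0.286) and r was 0.28 without the 2 farthest arrays, so that this relation rests on those arrays. After centring each group its r was 0.76. These 3 pairs passed by r, and none passed by rho.

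Of the binding proteins, Igfbp4 and Igfbp5 followed markers of other cells in the nerve, while Igfbp2 and Igfbp3 passed with no marker list. Over 80 pairs of members and marker lists, Igfbp4 tracked the level of 10 smooth muscle and pericyte genes, with r = 0.79 (adjusted permutation p = 0.0384) and rho = 0.75 (adjusted permutation p = 0.101), and r = 0.69 without the 2 farthest arrays. Igfbp5, read by the probe set used for the tests, tracked the level of 10 fibroblast and perineurium genes, with r = 0.79 (adjusted permutation p = 0.0384), rho = 0.85 (adjusted permutation p = 0.0128), and r = 0.63 without the 2 farthest arrays. After centring each group these r were 0.87 and 0.91. Both relations were measured within the 14 arrays only. There Igfbp5 lay at 12.98 to 13.52, with fibroblast and perineurium levels of -0.11 to 0.19. On the 5 neuron-poor arrays it lay at 13.46 to 13.83, although their levels ran from -0.35 to 0.20. No other pair passed by r. For Igf1r and the level of 10 skeletal muscle genes r was -0.61 (adjusted permutation p = 0.277). Igfbp4 and Igf1 had r = 0.70 and 0.71 with the level of 10 macrophage genes (adjusted permutation p = 0.102 for each). With the smooth muscle and pericyte level Igf1 had r = 0.65 (adjusted permutation p = 0.188). The part of these contents in the relation of Igf1 and Igfbp4 was not tested.

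**Figure D5:**
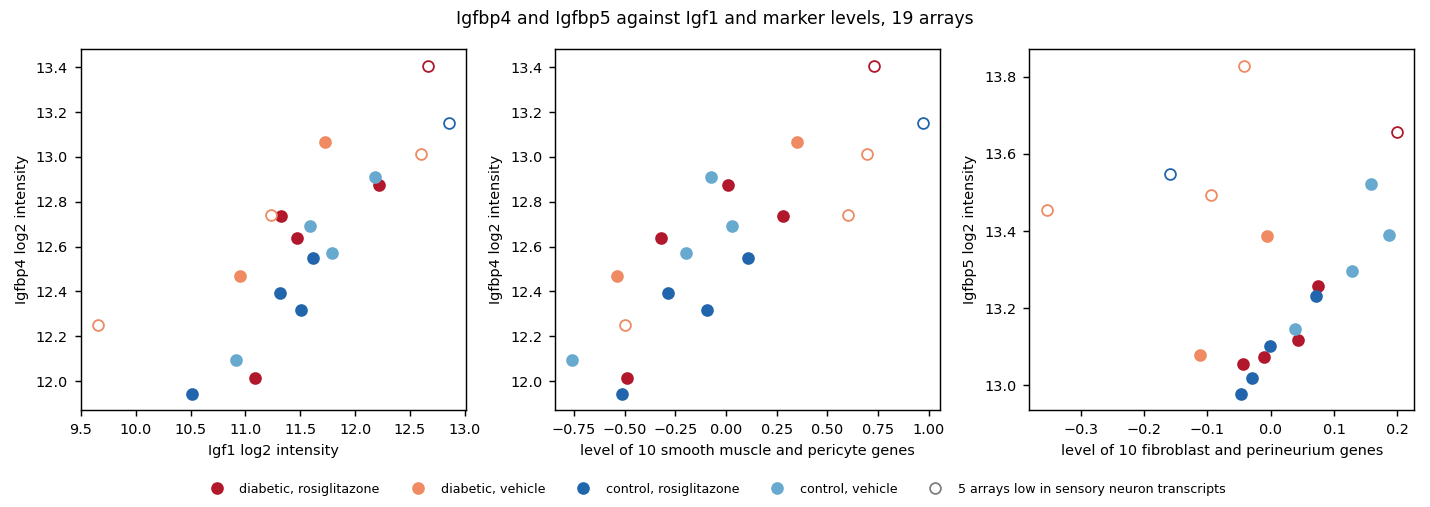
Log2 intensity of Igfbp4 (y axes, left and middle) against Igf1 and against the level of 10 smooth muscle and pericyte genes, and of Igfbp5 (y axis, right) against the level of 10 fibroblast and perineurium genes, 1 point per array, coloured by group. Over the 14 filled points r was 0.81, 0.79 and 0.79, and open points are the 5 arrays low in sensory neuron transcripts.

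For each member the most similar profiles over the 19 arrays were listed by Pearson r, as a description. The 2 closest to Igf2 were Dcdc2a (r = 0.99) and Asgr1 (r = 0.98), and Igfbp2 was closest to Igf2 itself (r = 0.97) and to Sall1 (r = 0.96). Within the 14 arrays the r of Igf2 were 0.94 and 0.91 and those of Igfbp2 0.78 and 0.67. The 2 closest to Insr were Tspan9 and Arhgef7, at 0.96 each, and within the 14 arrays these were 0.66 and 0.72. Igf1r was closest to Cldnd1 (r = 0.98) and Eml4 (r = 0.97), which stayed at 0.97 and 0.96 within the 14 arrays. Igf1 was closest to Loxl1 and Bmper, Igfbp3 to Slc15a3 and Ly86, Igfbp4 to Procr and Cma1, and Igfbp5 to Antxr2 and Nid1, with r from 0.86 to 0.94. Within the 14 arrays these were 0.64 and 0.48 for Igfbp3, and from 0.78 to 0.95 for Igf1, Igfbp4 and Igfbp5. The closest profiles of the substrates were Spon2 and Fermt2 for Irs1 and Btd and Ripk4 for Irs2, with r from 0.75 to 0.79. The arrays behind each r share their tissue content and RNA integrity.

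Other genes of the pathway were described from a list of 61, of which 53 had a named probe set and 45 were tested. In diabetic mice given vehicle 28 of the 45 lay higher and 17 lower, with a median difference of 0.13 against 0.03 over all genes. None passed the adjusted threshold, and at an unadjusted p under 0.05 9 lay higher and 1 lower, against the 10.7% and 7.39% of all genes given above. Akt1, the kinase downstream of phosphatidylinositol 3-kinase, was at 11.82, 11.85, 11.45, 11.35 and 11.14 in diabetic nerve, against 11.04, 10.95, 11.07 and 10.96 in control nerve. Every diabetic array lay above every control array, as for 2.63% of all genes tested, with a difference of 0.52 (SE 0.17; limma adjusted p = 0.238). Ptpn1, the phosphatase PTP1B that switches the insulin receptor off, differed by 0.53 (SE 0.18), and Tsc1, a brake on mTOR, by 0.48 (SE 0.17), with the same adjusted p. The other 6 higher genes were Gsk3a, Rptor, Foxo1, Ide, Igfbp7 and Mtor, named after their values were seen, at differences of 0.21 to 0.77. Foxo1, a transcription factor that AKT keeps out of the nucleus, was at 12.47, 12.26, 11.03, 11.10 and 10.97 in diabetic nerve, against 10.88, 10.69, 10.89 and 10.70 in control nerve, and was highest on DV706 and DV707. Shc1, an adaptor of both receptors, was the lower one, by -0.47 (SE 0.19). Without DV706 and DV707, 1 gene of the list had an unadjusted p under 0.05, and without the 5 neuron-poor arrays 3 did, with 29 and 25 of the 45 higher.

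Under rosiglitazone in diabetic mice 15 of the 45 lay higher and 30 lower, with a median difference of -0.11 against -0.02 over all genes. At an unadjusted p under 0.05 4 lay lower, against 5.56% of all genes, and they were Tsc1, Rptor, Akt1 and Gsk3a. Tsc1 differed by -0.38 (SE 0.16), Rptor, the RAPTOR subunit of mTOR complex 1, by -0.44 (SE 0.20), and Akt1 by -0.36 (SE 0.16), each with a limma adjusted p of 0.497. This comparison and diabetes under vehicle share the 5 DV arrays. Without DV706 and DV707 1 gene had an unadjusted p under 0.05. In control mice the smallest p of the list belonged to Pik3r1, the regulatory subunit of phosphatidylinositol 3-kinase, Slc2a4, the insulin-responsive glucose transporter GLUT4, and Shc1. Their differences were -0.21 (SE 0.13), 0.74 (SE 0.47) and -0.27 (SE 0.19). Slc2a4 was at 8.27, 8.42, 8.17, 7.94 and 10.95 on arrays CR711 to CR715, against 7.66, 7.88, 7.75 and 8.76 on CV702 to CV705. The highest of these arrays, CR715, had adipocyte and skeletal muscle levels of 2.82 and 2.79. The part of fat and muscle in the Slc2a4 difference was not tested.

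Between diabetic and control mice given rosiglitazone, Ide, the insulin-degrading enzyme, averaged 11.19 ± 0.05 (SD, n = 5) in diabetic nerve, against 11.01 ± 0.07 (SD, n = 5) in control nerve. Every diabetic array lay above every control array, as for 0.178% of all genes tested, but the limma adjusted p was 1.000. Socs2, a feedback inhibitor of growth hormone signalling, and Pappa2, a protease of binding proteins, differed by 0.51 (SE 0.27) and 0.91 (SE 0.57). For the interaction the smallest p belonged to Shc1 at 0.61 (SE 0.26), Tsc1 at -0.52 (SE 0.24) and Rptor at -0.61 (SE 0.29), each with a limma adjusted p of 0.748.

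Target genes of FOXO factors, of which 14 of 15 listed were tested, were split in diabetic mice given vehicle. Of these, 9 lay higher and 5 lower, with a median difference of 0.09, against 0.03 and 52.9% higher over all genes. At an unadjusted p under 0.05 0 lay higher and 2 lower, against 10.7% and 7.39% of all genes, and the 2 were Sod2 and Gadd45a. Without DV706 and DV707 the count was 5 higher and 9 lower, and 0 had an unadjusted p under 0.05. Sod2, the mitochondrial superoxide dismutase, was at 11.39 ± 0.24 (SD, n = 5) in diabetic nerve, against 11.88 ± 0.07 (SD, n = 4) in control nerve, a difference of -0.49 (SE 0.18; limma adjusted p = 0.238). Gadd45a, a gene of the DNA damage response, differed by -1.21 (SE 0.49; limma adjusted p = 0.246).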

How the data were processed

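Affymetrix arrays of sciatic nerve RNA from 19 mice were used. RNA was purified on RNeasy columns and labelled with biotin by Ovation amplification, per the labels' protocols. The deposited table gives an intensity for each probe set of each array, from 3.76 to 30602 and thus linear. RMA is named, with no version, in the submitters' processing notes. This method returns log2 values, and the step to the linear scale, the settings and the build are not given in the sources used here. 0 columns of values were left unused, and no pair of arrays was a duplicate (highest r 0.994, with at most 257 equal values of 45101).

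Intensities were converted to log2 without an offset. Of the probe sets 64 were controls, 34945 had 1 gene symbol in the platform annotation, 932 several and 9160 none. Of these, 34741 were matched to the reference gene table, and 0 symbols changed. A gene's brightest probe set by its 19-array mean stood for it, and genes above the 40th percentile of probe sets, 5.54, were tested. The model had 1 mean per group for all 4 groups and was fitted by limma 3.58.1 under R 4.3.3 (lmFit, contrasts.fit, eBayes), with Benjamini-Hochberg adjustment over 13460 genes within each of 5 comparisons at 0.05. The fit was tested on simulated data. Differences are in log2 units with the model's SE, and the p-values measure the spread between mice, tissue content included. The number of arrays limits the precision. A list's level on an array is the mean of its tested genes, each centred over the 19 arrays. Correlations and their permutation tests used Python 3.11.15 with numpy 2.4.6 and scipy 1.17.1.

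The members, the gene lists and the tests were chosen with earlier results of these data known. All members were named in every comparison, with the 2 genes most similar to each by Pearson r, and of the other pathway genes the 3 with the smallest p in each comparison. The alternatives tried were quantile normalization, no filter, the mean of a gene's probe sets, array weights, a fit of only the groups compared, the Gapdh difference or the muscle or fat level as a covariate, and leaving out single arrays, DV706 with DV707, or the 5 neuron-poor arrays. The counts of the pathway and FOXO lists without those arrays were added after seeing the data. Promoter windows came from RefSeq (GRCm38.p6). Scanner files were not used here.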

Additional observations from a re-analysis of the deposited data

Results flagged for a closer look

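In 40 groups of values, 1 for each member and group of mice, the highest and the lowest array were compared with their neighbours by Dixon's gap ratio at the 95% level, and 2 arrays stood apart. Chance flags about 1 in 20 groups. Igf1r was at 10.24 on array CV705, above the other 3 control vehicle arrays at 9.84 to 9.87. Without CV705 the Igf1r difference between diabetic and control mice given vehicle was -1.03. Igfbp2 was at 5.98 on array DR716, below the other 4 arrays of diabetic mice given rosiglitazone at 10.05 to 10.94. DR716 is an array low in sensory neuron transcripts, and its Gapdh 3' minus 5' difference was 1.75.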

How the results depend on the processing

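No paired analysis was possible because the groups share no replicate number. The members' differences were refitted 1060 times, and in 0 of these did a member pass the adjusted threshold, while 963 kept their sign and 97 did not. All 50 member differences kept their sign under quantile normalization. Without the filter, or with only the groups compared, each difference rests on the same group means. The 50 and 40 signs of those settings, counted among the 963, could therefore not change. Of the 50 differences without the 5 neuron-poor arrays, 31 kept their sign and 19 did not. The number of genes past the threshold, 0 in each comparison, was also 0 under every alternative run, with 2 exceptions. Diabetes under vehicle had 4 genes without array DV710, and between 0 and 4 when each array was left out in turn, and rosiglitazone in control mice had 20 with array weights. Of the 14 FOXO targets 5 were higher in diabetes under vehicle without DV706 and DV707, against 9 with all arrays. Other results that turned in sign follow, and where no array was left out their cause was not tested. With the mean of a gene's probe sets these differences were -0.73 for Igfbp5 in diabetes under vehicle and 0.49 for Igfbp5 under rosiglitazone in diabetic mice. The same mean gave 0.15 for Igf1r in diabetes under rosiglitazone and 0.94 for Igfbp5 in the interaction. With the Gapdh difference as a covariate, values opposite in sign were -0.011 for Igfbp4 and -0.039 for Igfbp5 in diabetes under vehicle, 0.015 for Insr and -0.12 for Igf1r under rosiglitazone in diabetic mice and 0.10 for Igfbp5 in the interaction. Without DV706 and DV707, values opposite in sign were -0.031 for Igfbp5 in diabetes under vehicle, 0.020 for Insr and -0.10 for Igf1r under rosiglitazone in diabetic mice and 0.088 for Igfbp5 in the interaction. Without the 5 neuron-poor arrays these differences were 0.17 for Igf2, 1.06 for Igfbp2, 0.27 for Igfbp3 and -0.11 for Igfbp5 in diabetes under vehicle and 0.0057 for Insr, -0.028 for Igf1r, -0.12 for Igf2, -0.50 for Igfbp2, -0.018 for Igfbp3 and -0.20 for Igfbp4 under rosiglitazone in diabetic mice. Turned as well were 0.16 for Igf2, -0.040 for Irs1 and 0.18 for Igfbp2 under rosiglitazone in control mice. Turned as well were 0.018 for Igf1r and 0.39 for Igfbp2 in diabetes under rosiglitazone. Other such values were -0.28 for Igf2, 0.037 for Irs1, -0.67 for Igfbp2 and 0.15 for Igfbp5 in the interaction. With array weights these differences were -0.21 for Igfbp4 under rosiglitazone in diabetic mice and 0.050 for Igf2 and 0.15 for Igfbp2 under rosiglitazone in control mice. Other such values were 0.081 for Igf2 and 0.50 for Igfbp2 in diabetes under rosiglitazone. A further one was 0.066 for Igfbp5 in the interaction. With the skeletal muscle level as a covariate, values opposite in sign were -0.074 for Igfbp4 under rosiglitazone in diabetic mice and 0.021 for Igf1r in diabetes under rosiglitazone. With the adipocyte level as a covariate, values opposite in sign were 0.0013 for Irs1 and -0.22 for Igfbp4 under rosiglitazone in diabetic mice, 0.11 for Igfbp2 under rosiglitazone in control mice and 0.037 for Insr in diabetes under rosiglitazone. When each array was left out in turn, some differences crossed 0. In diabetes under rosiglitazone the ranges were -0.070 to 0.52 for Igf1, -0.31 to 0.089 for Igf1r, -0.49 to 0.30 for Igf2, -0.52 to 0.84 for Igfbp2, -0.049 to 0.15 for Igfbp5 and -0.13 to 0.056 for Insr. In diabetes under vehicle the ranges were -0.73 to 0.0061 for Igf1, -0.44 to 0.33 for Igfbp3 and -0.017 to 0.25 for Igfbp4. In the interaction the ranges were -0.045 to 0.30 for Igfbp4, -0.16 to 0.041 for Igfbp5 and -0.085 to 0.050 for Irs1. Under rosiglitazone in control mice the ranges were -0.39 to 0.20 for Igf1, -0.49 to 0.16 for Igf2, -0.67 to 0.18 for Igfbp2, -0.27 to 0.036 for Igfbp4 and -0.056 to 0.065 for Irs1. Under rosiglitazone in diabetic mice the ranges were -0.048 to 0.70 for Igfbp3, -0.14 to 0.21 for Igfbp4 and -0.070 to 0.060 for Irs1. With 4 or 5 arrays a group, differences well under the widths of the intervals could not be told from 0.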
